A study of Mus musculus with 10 samples.

Results

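The 9 genes described here carry the glucocorticoid signal of the mouse: the receptors Nr3c1 and Nr3c2, the receptor-bound co-chaperones Fkbp4 and Fkbp5, the enzymes Hsd11b1 and Hsd11b2, and the induced genes Tsc22d3, Sgk1 and Klf9. They were chosen by name for their roles, with earlier results of these data known, among 23506 gene symbols named on the array. Each was followed through every probe whose transcript accession belongs to it. Together they had 15 probes, 14 named by the array's own accession and 1, of Nr3c2, by the authors' deposited table alone. Of the 15, 13 were bright enough to test, and 8 of the 9 genes had at least 1 tested probe. Where a gene had several probes, the brightest of those named by the array's own accession stood for it, and the others are given beside it.

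The animals were male C57BL/6N mice, and the testis was taken at 6 weeks of age. The mothers of the 5 R offspring ate 50% of a control dam's mean daily food from 6.5 days after mating, and unrelated control dams nursed the pups. The mothers of the 5 C offspring ate freely and nursed their own pups. Prenatal diet and fostering changed together and cannot be told apart. All 10 males ate regular chow after weaning, and a single testis of each went on a 1-colour Agilent array that measures messenger RNA. Litters were not named in the labels, and the p-values treat the 10 testes as independent.

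Corticosterone, the glucocorticoid of mice, enters cells and binds the glucocorticoid receptor, which waits in the cytoplasm in a complex built around the chaperone Hsp90. Bound receptor moves into the nucleus, joins DNA as a dimer at palindromic response elements and recruits coactivators or corepressors. Inside a cell, 11-beta-hydroxysteroid dehydrogenase type 1 regenerates active hormone and type 2 inactivates it. In the testis, Leydig cells are known to carry the receptor and to make less testosterone when glucocorticoid is high, and Sertoli cells and peritubular cells also carry it.

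Values are log2 signals: the log2 of an array's background-subtracted intensity minus the 75th percentile of that array, so 0 is the 75th percentile. A call is an adjusted p under 0.05 in limma with Benjamini-Hochberg adjustment over all 33851 probes tested. The level of a probe is not comparable with that of another probe, so levels are compared between testes and never between genes. In whole testis RNA, fewer cells of a type and less RNA per cell cannot be told apart.

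The array spans many called genes, which is the background for the 9. Of 16790 genes tested, 35.6% were called, 2517 genes as higher in R and 3461, or 20.6%, as lower, and in 29.1% the groups did not overlap. The 75th percentile lay between 804 and 1019 intensity units on the 10 arrays, 56.6% to 67.4% of probes were well above background and 0 spots were saturated. Slide 1 held C replicates 1 and 2 with R replicates 1 to 4, and slide 2 held C replicates 3 to 5 with R replicate 5. C replicate 2 stood apart, with a median intensity of 49.5 against 68.1 to 88.0 on the other 9 arrays. In the authors' deposited table of their comparison, R replicate 1 is averaged with the control side and C replicate 5 with the test side, against the labels. Groups were taken from the labels here, and results are also given without those 2 arrays. With the table's own grouping limma called 0 of 33851 probes, with 2567 at an unadjusted p under 0.05.

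Markers of several testis cells differed between the groups in the same RNA. Beside their counts, 35.6% of all genes were called, 20.6% as lower in R. Of the Sertoli markers 9 of 10 tested were lower in R and 0 higher, and their summed linear signal, relative to each array's 75th percentile, ran from 240 to 373 in C and from 186 to 212 in R. Of the Leydig markers 3 of 8 tested were lower and 0 higher, with sums of 25.2 to 46.1 in C and 20.5 to 26.9 in R. Spermatocyte markers were lower for 5 of 8, and 4 of 7 endothelial markers were higher, with sums of 1.74 to 2.51 in C and 2.82 to 3.26 in R. Spermatogonial markers were lower for 4 of 8 and higher for 1, with sums of 24.2 to 41.3 in C and 19.3 to 22.2 in R, and 2 of 3 tested blood markers were lower. Macrophage markers were lower for 4 of 8 and higher for 0, with sums of 68.6 to 80.2 in C and 73.0 to 83.2 in R. Those sums were mostly Aif1, at 63.1 to 74.5 in C and 70.5 to 79.9 in R. The other 7 tested markers summed to 3.41 to 5.59 in C and 2.31 to 3.75 in R. Of the peritubular myoid markers 1 of 6 was higher and 0 lower. Of the spermatid markers 1 of 8 was lower and 0 higher, and 0 of 8 adipocyte markers were called. The labelled tissue was checked with spermatid markers, whose sums were 1030 to 1220 in C and 1060 to 1210 in R, and with 7 epididymis markers, of which 6 were not above background on any array. The part of these markers' cells in the results that follow was not tested.

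Across the 9 genes, Sgk1 was called lower in R and Klf9 was called higher, 1 gene in each direction against the background shares above. The median change of the 8 tested genes was -0.15 on the log2 scale, and it was -0.03 over all genes. By the probe that stands for each gene, the groups overlapped in all 9, including Hsd11b2, which was not above background. Over all genes the groups did not overlap in 29.1%. The brighter Nr3c2 probe, which does not stand for the gene, had groups that did not overlap. Of the 13 tested probes 1 was called higher and 3 lower, where 38.6% of all tested probes were called, 21.4% higher and 17.1% lower.

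**Figure D1:**
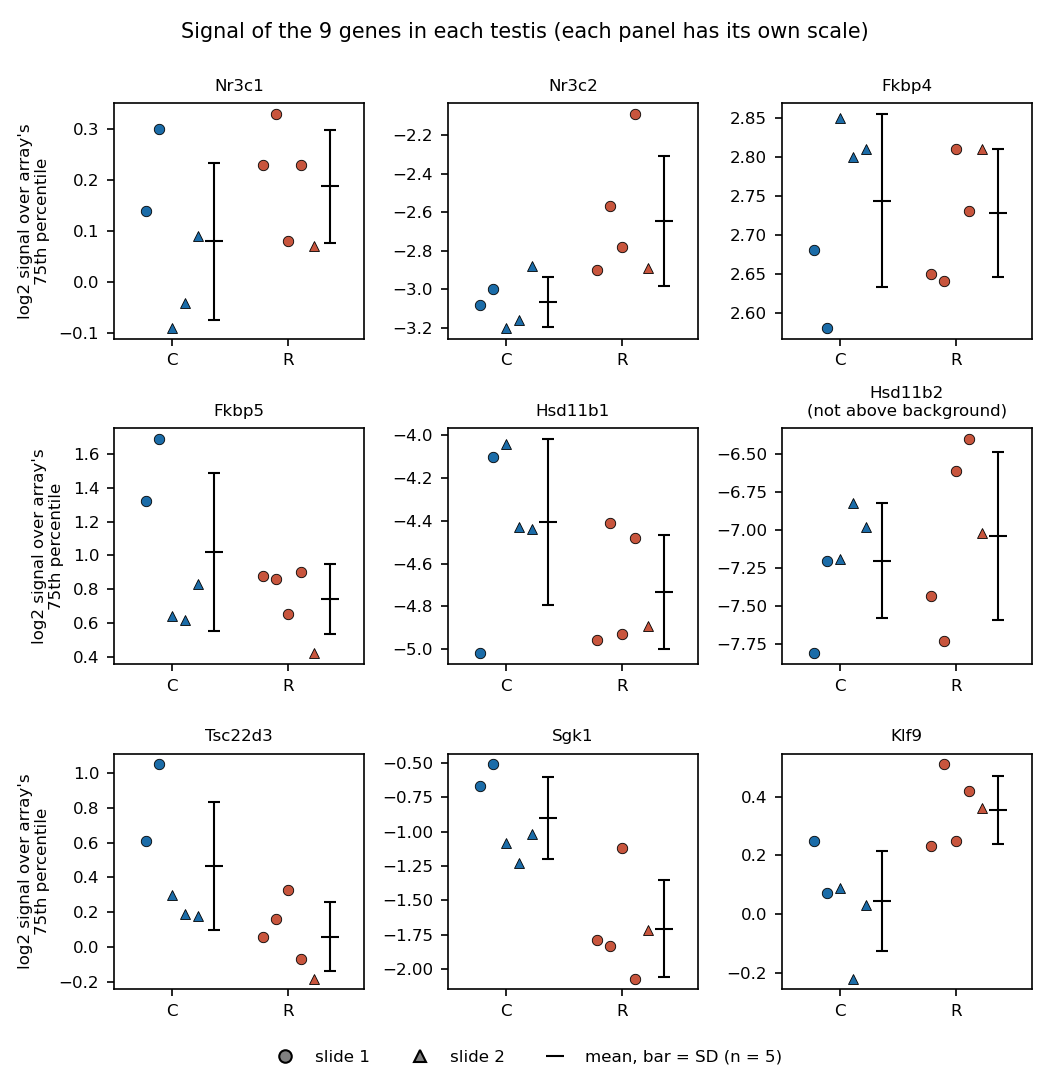
Log2 signal of the probe that stands for each of the 9 genes, in 5 C and 5 R testes; each point is 1 testis, circles are slide 1, triangles are slide 2, and the bar is the mean with its SD (n = 5). Sgk1 is lower in 4 of 5 R testes than in every C testis, Klf9 is higher in 3 of 5, and Hsd11b2 is not above background on any array; the vertical scale differs between panels.

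Sgk1 had the larger of the 2 called changes, and it is also the one whose promoter holds a complete textbook response element. Serum- and glucocorticoid-regulated kinase 1 is induced rapidly by both receptors and keeps sodium channels at the cell surface by holding back the ubiquitin ligase Nedd4-2. Its RefSeq models have 6 start sites on chromosome 10 (GRCm38.p6, plus strand). The 250 bases before the start at 21993890 are printed because they hold the motif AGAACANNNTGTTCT, which no other RefSeq window given for these genes holds; the capitals mark its arms.

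Sgk1, chr10:21993640-21993889, plus strand: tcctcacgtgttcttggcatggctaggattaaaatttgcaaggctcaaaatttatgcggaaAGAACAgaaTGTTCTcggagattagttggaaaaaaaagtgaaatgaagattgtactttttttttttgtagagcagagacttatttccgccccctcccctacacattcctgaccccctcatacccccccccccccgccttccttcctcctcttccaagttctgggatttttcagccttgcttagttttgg

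The match runs from position 21993701 to 21993715, which is 189 to 175 bases before the start. The motif was searched on both strands in mouse windows from RefSeq that run from 250 bases before a start to 50 after it, and 3 of 32851 windows held it, a share of 0.00913%. A single arm, AGAACA, was in 19% of all windows and in 4 of the 14 windows given for these genes, 3 of which belong to Sgk1 and 1 to Tsc22d3. Each full match also contains the arm on both strands. A match in these letters is a description and does not show binding. Nr3c2, Fkbp4, Fkbp5, Hsd11b1 and Klf9 each had 1 window, in which these letters did not occur. Nr3c1 and Hsd11b2 had no window and were not searched.

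The Sgk1 probe (A_51_P118237) read -0.67, -0.51, -1.08, -1.23 and -1.02 in C replicates 1 to 5. It read -1.79, -1.83, -1.12, -2.07 and -1.72 in R replicates 1 to 5. R replicate 3 lay inside the C range and the other 4 R testes lay below every C testis. The change was -0.81 ± 0.19 (SE) on the log2 scale, a 1.75-fold lower signal with a 95% interval of 1.30 to 2.34, and the adjusted p was 0.0105 in limma. Of all tested genes 4.54% had a larger absolute change.

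The lower Sgk1 signal kept its call with a slide block (-0.93, adjusted p 0.00564) and on slide 1 alone (-1.11, adjusted p 0.0247). Within slide 2, where R has 1 array and limma called 0 of 33851 probes and had 8750 at an unadjusted p under 0.05, it was -0.61 with an adjusted p of 0.113. Without the 2 arrays that the deposited table groups otherwise it was -0.82 with an adjusted p of 0.0475, and leaving out any single array gave -0.95 to -0.71. With the table's grouping it was -0.50 with an adjusted p of 0.461. C replicates 1 and 2, the highest in Sgk1 and both on slide 1, also had the highest summed Sertoli markers at 297 and 373. In R the order differed. R replicate 3, the highest R testis in Sgk1 at -1.12, had the lowest sum at 186, and R replicate 2, at -1.83, had the highest R sum at 212. The part of cell content in the result was not tested.

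Klf9 went the other way. Krüppel-like factor 9 is a zinc finger repressor of transcription that both glucocorticoid and thyroid hormone induce in many tissues. Its probe (A_65_P19780, chromosome 19) read 0.25, 0.07, 0.09, -0.22 and 0.03 in the C testes. The R testes read 0.23, 0.51, 0.25, 0.42 and 0.36. C replicate 1 reached the lower R values, C replicate 4 was the lowest of all, and 3 of 5 R testes lay above every C testis. The change was 0.31 ± 0.10 (SE), a 1.24-fold higher signal with a 95% interval of 1.07 to 1.43 and an adjusted p of 0.0289 in limma.

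The Klf9 call was held by fewer alternatives than that of Sgk1, 12 of 23 against 21 of 23. Relative to each array's median, a scaling that moves the median change of all genes from -0.03 to -0.24, Klf9 changed by 0.09 (adjusted p 0.547). A fit with the slides as a block gave 0.26 (adjusted p 0.0505). The arrays of slide 1 alone gave 0.19 and those of slide 2 alone 0.40. The call was also lost without C replicate 5, R replicate 2, R replicate 4 or R replicate 5, with adjusted p-values of 0.0547, 0.0620, 0.0652 and 0.0559. Without the 2 arrays that the deposited table groups otherwise it was 0.34 (adjusted p 0.0713).

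Tsc22d3, also known as Gilz, encodes a leucine zipper protein that the glucocorticoid receptor induces directly and that restrains NF-kappaB and AP-1. It lies on the X chromosome, and it had a pair of tested probes. The probe that stands for the gene (A_55_P1989061) read 0.61, 1.05, 0.30, 0.19 and 0.18 in C and 0.06, 0.16, 0.33, -0.07 and -0.18 in R. C replicates 1 and 2 were the highest, R replicate 3 was close to C replicate 3, and 4 of 5 R testes lay below every C testis. The difference was -0.41 ± 0.17 (SE), with a 95% interval of -0.79 to -0.02 and an adjusted p of 0.0833 in limma, which is no call.

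The other Tsc22d3 probe (A_55_P2741276) was called. It read 0.52, 1.06, 0.14, -0.03 and 0.26 in C and -0.33, 0.01, -0.39, -0.31 and -0.28 in R. R replicate 2 lay above the lowest C testis and the other 4 R testes lay below it. The change was -0.65 ± 0.19 (SE), a 1.57-fold lower signal with an adjusted p of 0.0217. The probe that stands for the gene passed the threshold with a slide block (-0.60, adjusted p 0.00546), on slide 1 alone (-0.71, adjusted p 0.0254) and relative to the array median (-0.62, adjusted p 0.0403). In the same settings 51.6%, 39.6% and 41.9% of all genes were called. The mean of the gene's probes was also called (-0.53, adjusted p 0.0326), a setting in which 6254 of 16790 genes were called. Without C replicate 2 the difference of the probe that stands for the gene was -0.26 (adjusted p 0.123).

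Nr3c1 encodes the glucocorticoid receptor itself, and its signal was not called different. The probe that stands for it (A_55_P2728068, chromosome 18) read 0.14, 0.30, -0.09, -0.04 and 0.09 in C. It read 0.23, 0.33, 0.08, 0.23 and 0.07 in R. The groups overlapped over most of their range. The difference was 0.11 ± 0.09 (SE) with a 95% interval of -0.09 to 0.30 and an adjusted p of 0.348 in limma, and relative to the array median it was -0.11.

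Its other probe (A_55_P1967885) differed by 0.05 ± 0.08 (SE), with an adjusted p of 0.646. The Nr3c1 signal differed between the slides. On slide 1 the mean was 0.22 in both groups, on slide 2 it was -0.01 in C, and the single R testis there read 0.07. The part of the slide in this was not tested. With slide as a block the difference was 0.03 (adjusted p 0.767). Limma with array weights gave 0.21 and a call (adjusted p 0.0277).

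Nr3c2 encodes the mineralocorticoid receptor, which binds corticosterone with higher affinity than Nr3c1 does and is therefore occupied at low hormone levels where type 2 dehydrogenase is missing. Its probes moved in opposite directions. The probe that stands for it by the array's accession (A_66_P132841, chromosome 8) read -3.08, -3.00, -3.20, -3.16 and -2.88 in C. It read -2.90, -2.57, -2.78, -2.09 and -2.89 in R. R replicates 1 and 5 overlapped C replicate 5 and the other 3 R testes lay above every C testis. The difference was 0.42 ± 0.15 (SE), with a 95% interval of 0.08 to 0.75 and an adjusted p of 0.051 in limma, which is no call. It was 0.20 (adjusted p 0.364) relative to the array median, 0.23 (adjusted p 0.278) after quantile normalisation and 0.36 (adjusted p 0.0954) with a slide block, and it was called in 5 of 24 alternatives, 1 of which reads the brighter probe described next.

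A brighter probe (A_66_P110473) carries an Ensembl transcript on the array and takes the name Nr3c2 from the authors' deposited table alone. It read -2.11, -1.76, -2.35, -2.35 and -2.33 in C and -2.76, -2.69, -2.89, -2.96 and -2.73 in R. Every R testis lay below every C testis. The change was -0.63 ± 0.12 (SE), a 1.55-fold lower signal with an adjusted p of 0.00482, and limma called it in 20 of 22 alternatives, the exceptions being slide 2 alone (-0.39, adjusted p 0.124) and the deposited table's grouping (-0.45, adjusted p 0.461). A further Nr3c2 probe (A_51_P377914) was above background on 1 C and 1 R array and was not tested.

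The authors' deposited table lists both probes in the same opposite directions. It gives a log2 ratio of test over control of 0.49 (q = 0.515) for A_66_P132841. For A_66_P110473 the authors' deposited table gives -0.43 with the same q. Those ratios rest on the table's own grouping of the arrays, which crosses 2 of them against the labels.

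**Figure D2:**
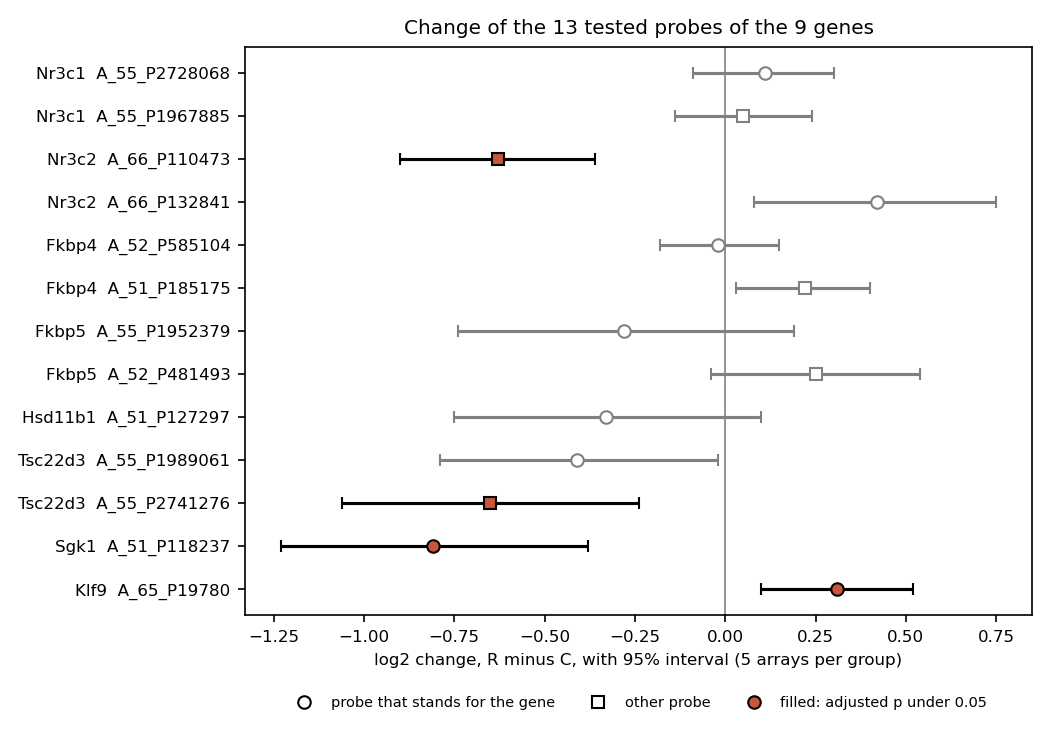
Change of the 13 tested probes of the 9 genes on the log2 scale, R minus C, with the 95% interval (5 arrays per group); circles stand for the gene, squares are other probes, and filled points have an adjusted p under 0.05. The Nr3c2 probes lie on opposite sides of 0 at 0.42 and -0.63, and the Sgk1 probe lies lowest at -0.81.

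Fkbp4 and Fkbp5 compete for the receptor complex. Fkbp4, or FKBP52, links the complex to dynein and promotes hormone binding, and in mice it is also needed for androgen receptor function. Its probe that stands for the gene (A_52_P585104, chromosome 6) read 2.68, 2.58, 2.85, 2.80 and 2.81 in C and 2.65, 2.64, 2.81, 2.73 and 2.81 in R. The R values lay inside the C range, and the difference was -0.02 ± 0.07 (SE), with a 95% interval of -0.18 to 0.15 and an adjusted p of 0.866. Its sign changed between settings, from -0.23 relative to the array median (adjusted p 0.0412) to 0.05 with slide as a block.

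The other Fkbp4 probe (A_51_P185175) read 1.60, 1.44, 1.77, 1.73 and 1.53 in C and 1.71, 1.74, 1.92, 1.95 and 1.83 in R. R replicates 1 and 2 lay inside the C range and the other 3 above it. The difference was 0.22 ± 0.08 (SE), with an adjusted p of 0.0618 in limma.

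Fkbp5, or FKBP51, is both an inhibitor of the receptor and one of its induced genes, which closes a feedback loop. Its probe (A_55_P1952379, chromosome 17) read 1.32, 1.69, 0.64, 0.62 and 0.83 in C. It read 0.88, 0.86, 0.65, 0.90 and 0.42 in R. C replicates 1 and 2, both on slide 1, were the 2 highest of the 10, and the other 3 C testes lay among the R values. The difference was -0.28 ± 0.21 (SE), with a 95% interval of -0.74 to 0.19 and an adjusted p of 0.301 in limma.

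For Fkbp5 the slide mattered for the call. The mean on slide 1 was 1.51 in C and 0.83 in R, while on slide 2 it was 0.70 in C and the single R testis read 0.42. A slide block gave a change of -0.54 (adjusted p 0.00679), slide 1 alone gave -0.68 (adjusted p 0.0183), and within slide 2 the difference was -0.28 (adjusted p 0.262). Without C replicate 2 it was -0.11 (adjusted p 0.614), and with array weights 0.03 (adjusted p 0.884). The other Fkbp5 probe (A_52_P481493) read -1.22, -1.24, -1.65, -1.80 and -1.55 in C and -1.11, -1.09, -1.50, -1.32 and -1.17 in R, a difference of 0.25 ± 0.13 (SE) with an adjusted p of 0.144.

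Probes of the same gene can be compared within an array, where scaling cancels. For the 5 genes with a pair of tested probes, the log2 signal of the brighter minus the other was taken in each testis, a comparison chosen after the probes' values had been seen. For Nr3c2 it was 0.88 ± 0.25 (SD, n = 5) in C and -0.16 ± 0.42 (SD, n = 5) in R, a change of -1.04 with an adjusted p of 0.0132 in a 2-sided exact permutation test over the 5 pairs. For Fkbp5 it was 2.51 ± 0.25 (SD, n = 5) in C and 1.98 ± 0.24 (SD, n = 5) in R, a change of -0.53 with the same exact permutation p of 0.0132 after adjustment. The Fkbp4 difference was 1.13 ± 0.09 (SD, n = 5) in C and 0.90 ± 0.08 (SD, n = 5) in R, a change of -0.23, also with an adjusted exact permutation p of 0.0132.

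The groups did not overlap for those 3 genes, each at the smallest unadjusted p that 5 against 5 can give, 0.00794. Among all 5687 genes with at least a pair of tested probes, 28.9% had groups that did not overlap in this difference. For Tsc22d3 the change was 0.24 (exact permutation, adjusted p 0.0794) and for Nr3c1 it was 0.06 (exact permutation, adjusted p 0.119). Within slide 1 the changes were -1.34 for Nr3c2, -0.65 for Fkbp5 and -0.24 for Fkbp4, and without C replicate 2 they were -0.95, -0.42 and -0.23. They show unequal change of the probes' signals, and which transcripts the probes read was not analysed here.

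**Figure D3:**
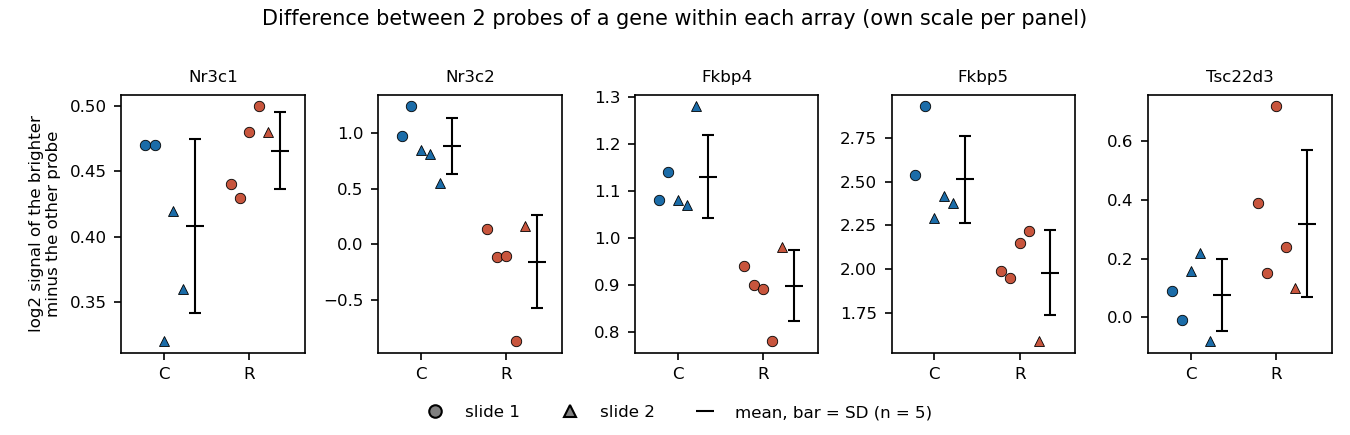
Log2 signal of the brighter minus the other probe of the same gene within each array, for the 5 genes with a pair of tested probes; points are testes, circles are slide 1, triangles are slide 2, and the bar is the mean with its SD (n = 5). The groups are apart for Nr3c2, Fkbp4 and Fkbp5 and overlap for Nr3c1 and Tsc22d3; the vertical scale differs between panels.

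The enzymes that set hormone levels inside cells were close to the limit of detection. Hsd11b1, the reductase that regenerates corticosterone and is known in rodent Leydig cells, had a probe (A_51_P127297, chromosome 1) that was well above background on 4 C and 2 R arrays. It read -5.02, -4.10, -4.04, -4.43 and -4.44 in C and -4.96, -4.41, -4.93, -4.48 and -4.89 in R. C replicate 1 was the lowest of the 10, and the R values lay inside the C range.

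The Hsd11b1 difference was -0.33 ± 0.19 (SE), with a 95% interval of -0.75 to 0.10 and an adjusted p of 0.189 in limma. Without C replicate 1 it was -0.48 and called (adjusted p 0.0390). A slide block gave -0.30, slide 1 alone -0.14 and slide 2 alone -0.59. Hsd11b2, the dehydrogenase that shields the mineralocorticoid receptor in kidney, had 1 probe (A_51_P410205, chromosome 8) that was not well above background on any of the 10 arrays. It was not detectable at this signal, and no fold is given.

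Genes around the receptor were followed in 5 lists chosen from textbook roles, with earlier results of these data known. They held 65 tested genes, of which 15 were called higher in R and 10 lower, a share near the 35.6% called over all genes. Of 13 coregulators tested, 9 were called higher and 1 lower, where 2517 of all 16790 genes were higher and 3461 lower, and their median change was 0.37 against -0.03 over all genes. Crebbp, the acetyltransferase CBP, rose by 0.56 ± 0.08 (SE, adjusted p 0.00183), from 2.93 to 3.32 in C to 3.67 to 3.81 in R. Its paralogue Ep300 rose by 0.42 ± 0.09 (SE, adjusted p 0.00763) and the acetyltransferase Kat2b, or PCAF, by 0.42 ± 0.08 (SE, adjusted p 0.00418). In each of these 3 genes, which were named for their small p, every R testis lay above every C testis. The groups did not overlap in 10 of the 13 coregulators and in 29.1% of all genes.

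Ncoa2, the p160 coactivator also called GRIP1, had probes that disagreed. Its brightest fell by 0.64 on the log2 scale (SE 0.11, adjusted p 0.00303), from 1.11 to 1.58 in C to 0.59 to 0.82 in R, while its other tested probe rose by 0.48 (adjusted p 0.0142). The other Ep300 probe differed by 0.07 (adjusted p 0.786), and the other Crebbp probe rose by 0.31 (adjusted p 0.0485). Relative to the array median, 3 coregulators were called higher and 2 lower, with a median of 0.16 where that of all genes was -0.24 and 41.9% of all genes were called. Crebbp was still called there (0.35, adjusted p 0.00667), and Kat2b (0.21, adjusted p 0.0703) and Ep300 (0.21, adjusted p 0.0525) were not. With slide as a block 9 were higher and 1 lower. Without the 2 arrays that the deposited table groups otherwise 4 were higher and 1 lower.

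The chaperones that hold the receptor ready for hormone were called for 1 gene higher and 1 lower of 13 tested, where 35.6% of all genes were called, with a median of 0. Relative to the array median 0 were called higher, with 0 at an unadjusted p under 0.05 in limma, and 4 lower, and with a slide block 1 was higher and 3 lower. Hspa8, the constitutive Hsc70 that delivers the receptor to Hsp90, fell by 0.42 on the log2 scale (SE 0.13, adjusted p 0.027), from 3.36 to 4.05 in C to 3.13 to 3.36 in R. Its call was lost without any of 5 single arrays, with an adjusted p of up to 0.0603, while all 3 of its other tested probes had the same sign. Hsp90aa1, the inducible Hsp90, rose by 0.16 ± 0.05 (SE, adjusted p 0.0400), from 6.18 to 6.24 in C to 6.30 to 6.45 in R, and relative to the array median it was -0.05. That call was lost without any of 8 single arrays. The Hsp90 activator Ahsa1 differed by -0.20 (adjusted p 0.0880) and was called with a slide block (-0.27, adjusted p 0.0261), on slide 1 alone (-0.36, adjusted p 0.0426) and relative to the array median (-0.42, adjusted p 0.0337). The ubiquitin ligase Stub1 differed by -0.14 (adjusted p 0.117) and was called relative to the array median (-0.35, adjusted p 0.0322). Ahsa1 was called in 3 of 23 alternatives and Stub1 in 1 of 23. Of all genes, 51.6% were called with a slide block, 39.6% on slide 1 alone and 41.9% relative to the array median.

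Other genes known to be induced by glucocorticoid did not move as a block. Of 29 listed, 28 were tested, 4 were called higher and 7 lower, near the 35.6% called over all genes, and their median change was -0.16. Fam107a, a stress-induced actin-binding protein, rose by 1.12 ± 0.22 (SE, adjusted p 0.00492), from -0.47 to 0.75 in C to 1.33 to 1.80 in R. Its other tested probe differed by -0.77 (adjusted p 0.151). Cebpd, a transcription factor of the acute phase response, fell by 0.75 on the log2 scale (SE 0.16, adjusted p 0.00652), from -0.19 to 0.49 in C to -0.87 to -0.35 in R.

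Txnip, the thioredoxin-binding arrestin that limits glucose uptake, fell by 0.65 on the log2 scale (SE 0.15, adjusted p 0.00840), from 2.04 to 2.68 in C to 1.43 to 2.01 in R. Its other tested probe differed by 0.06 (adjusted p 0.647). Errfi1, the feedback inhibitor of the EGF receptor also called Mig6, fell by 0.55 on the log2 scale (SE 0.13, adjusted p 0.0113), from 0.41 to 1.04 in C to -0.03 to 0.37 in R. Fam107a, Cebpd, Txnip and Errfi1 were named for the smallest p of this list, a choice that favours separate groups and calls that hold. The groups did not overlap in 7 of the 28 tested genes and in 29.1% of all genes. For Fam107a, Cebpd, Txnip and Errfi1 the groups did not overlap in the brightest probe and each call held when any single array was left out. Each also held without the 2 crossed arrays, with adjusted p-values of 0.0240, 0.0277, 0.0180 and 0.0485. Relative to the array median 2 genes of the list were called higher and 12 lower, where 863 of all 16790 genes were called higher and 6178 lower.

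**Figure D4:**
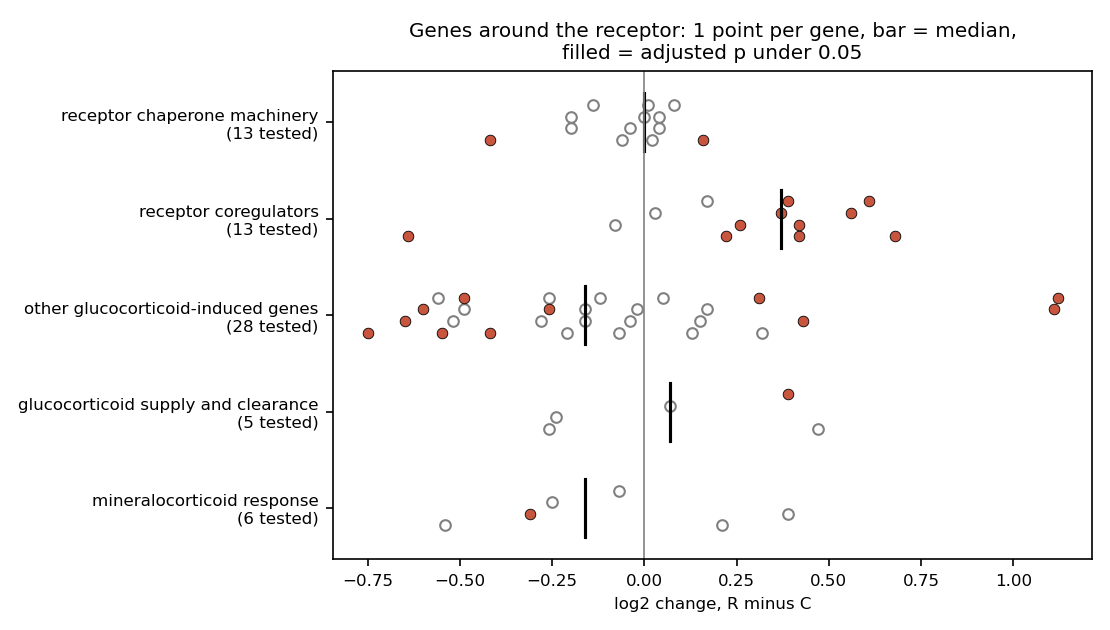
Change of each tested gene of the 5 lists around the receptor on the log2 scale, R minus C; each point is a gene by its brightest tested probe, the bar is the list's median, and filled points have an adjusted p under 0.05. The coregulators have a median of 0.37 with 9 genes called higher, and the other induced genes spread to both sides of 0.

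The lists for hormone supply and for mineralocorticoid response were measured in part. Of 10 supply and clearance genes 5 were tested, since the binding globulin Serpina6, the adrenal enzymes Cyp11b1 and Cyp11b2, the receptor Mc2r and the reductase Akr1d1 did not pass the filter on dim probes. Of the 5 tested, 1 was called higher and 0 lower, where 35.6% of all genes were called. The efflux pump Abcb1a, which exports corticosteroids, rose by 0.39 ± 0.13 (SE, adjusted p 0.0401). That call was lost without any of 7 single arrays. Srd5a1, the 5-alpha-reductase, differed by -0.24 (adjusted p 0.111) and was called relative to the array median (-0.45, adjusted p 0.0262) and on slide 1 alone (-0.47, adjusted p 0.0346). H6pd, which feeds Hsd11b1 with NADPH, differed by -0.26 (adjusted p 0.117) and was called with a slide block (-0.34, adjusted p 0.0475) and relative to the array median (-0.48, adjusted p 0.0350). The 21-hydroxylase Cyp21a1 differed by 0.47 (adjusted p 0.176), was called with a slide block (0.74, adjusted p 0.0173), and was 0.27 without R replicate 5 (adjusted p 0.361). Srd5a1 and H6pd were each called in 2 of 23 alternatives and Cyp21a1 in 1 of 23. Of all genes, 51.6% were called with a slide block, 39.6% on slide 1 alone and 41.9% relative to the array median.

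Of 8 mineralocorticoid response genes 6 were tested and 1 was called, where 35.6% of all genes were called. Nedd4l, the ubiquitin ligase that Sgk1 phosphorylates, fell by 0.31 on the log2 scale (SE 0.10, adjusted p 0.0372), from -1.04 to -0.60 in C to -1.34 to -1 in R, and that call was lost without any of 6 single arrays. The potassium channel Kcnj1 had a dim probe, well above background on 4 C and 3 R arrays. It differed by 0.39 (adjusted p 0.0517) and was called in 4 of 22 alternatives, among them a slide block (0.46, adjusted p 0.0306). Relative to the array median the difference was 0.18 (adjusted p 0.303), after quantile normalisation 0.15 (adjusted p 0.41) and with normexp 0.12 (adjusted p 0.23). The sodium pump subunit Atp1b1 differed by -0.25 (adjusted p 0.106) and was called with a slide block (-0.36, adjusted p 0.0192) and relative to the array median (-0.47, adjusted p 0.0376). It was called in 2 of 23 alternatives. With a slide block 51.6% of all genes were called, and relative to the array median 41.9%. Limma called 0 genes of this list higher, with 1 at an unadjusted p under 0.05.

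The genes whose signal followed a member most closely within the groups were found by Pearson correlation of group-centred log2 signals over the 10 arrays, among 16789 other genes. The genes most like Sgk1 were Tmsb15l (0.984), Edem1 (0.957) and Mrpl50 (0.951), and 0.161% of genes exceeded 0.9. Klf9 had Ppp1r3e at 0.925, Slc26a2 at 0.910 and Syt3 at 0.907, and 0.0179% exceeded 0.9. Fkbp5 had Cyfip1 at 0.996, and 6.12% of genes exceeded 0.9 with it, as did 4.38% with Nr3c1 and 3.15% with Fkbp4. The arrays share labelling and slides across all genes, and the correlations are given as a description.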

How the data were processed

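RNA of 10 single testes was labelled with Cy3 and hybridised to SurePrint mouse arrays, per the labels. The RNA came from either of a pair of column kits, and which kit served which testis is not given in the sources used here. The authors deposited scanner intensity values, made with Agilent Feature Extraction 12.0.3.1 according to the submitters' processing notes. These intensities are background-subtracted and not normalised between arrays, per the file headers. The authors' deposited table of 2266 probes gives log2 ratios, p-values and q-values, and its 10 columns of per-sample values were not used.

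Spots of a probe were averaged without control or outlier spots, and log2 intensity minus the array's 75th percentile over non-control spots was fitted with limma 3.58.1 in R 4.3.3 (lmFit, eBayes, 2-sided, Benjamini-Hochberg). A probe was tested if it was well above background on at least 5 arrays. This kept 33851 of 56605 probes after 2 were dropped for a missing value. The number of arrays limits the precision.

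Accessions named 33767 probes through RefSeq (GRCm38.p6), and the deposited table named 185 more. The brightest tested probe stood for a gene, except that Nr3c2 was read by the probe that the array's own accession names. The rule for named genes took all 9 genes, up to 4 genes of smallest p per list around the receptor, and the 3 genes of highest correlation with a member, of which the text prints some. A gene that the rule names is not reported here. The members and lists were chosen with earlier results of these data known.

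On simulated data with 33851 probes and 200 changed, the fit recovered 77% of 2-fold and 98% of 4-fold changes and called 11 of 33651 unchanged probes. The simulated noise was independent between probes, with no shared slide or array effect, whereas 38.6% of tested probes were called in the data. These rates therefore need not hold for the data. Alternatives covered scaling, quantile normalisation, normexp (offset 50, on median spot signals, since no mean signal column was present), the filter, slide, array weights, variance trend, probe choice, grouping and leaving out each array.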

Additional observations from a re-analysis of the deposited data

Results flagged for a closer look

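A search for single testes far from the other 4 of their group covered 70 groups of 5 values. In it 4 stood out, a share near the 1 in 20 that chance would give in independent groups. The 70 groups were read on the same 10 arrays and are not independent, so that share cannot be applied here. All 4 were R replicate 2, and in each it was the highest of its group. For the second Tsc22d3 probe it read 0.01, where the nearest R testis read -0.28. For Atp1b1 it read 0.98 against 0.68, for Errfi1 0.37 against 0.03, and for Hspa8 3.36 against 3.16. The same testis had the highest summed adipocyte markers of the 10, at 13.8 against 2.57 to 9.47 in C and 3.79 to 4.58 in the other R testes. The part of that in these values was not tested.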

How the results depend on the processing

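No paired analysis was possible because the labels give no numbers that pair C with R testes. The count of members called higher was 0 relative to the array median, with no filter, with slide as a block, within either slide, with the deposited table's grouping and without its 2 crossed arrays, 2 with the filter on all arrays, 3 with array weights, and 0 to 2 without single arrays. The count called lower was 3 relative to the array median, with slide as a block and within slide 1, 0 within slide 2 and with the table's grouping, 2 with the mean of probes and 2 with the table's naming of Nr3c2, and 1 to 2 without single arrays. Among list genes, 15 called higher became 5 relative to the array median, 9 with no filter, 6 without the crossed arrays, and 0 within slide 2 and with the table's grouping, where limma had 15 and 6 list genes at an unadjusted p under 0.05 in either direction. The 10 called lower became 22 relative to the array median, 16 with slide as a block, 5 with no filter, 6 without the crossed arrays, 0 with the table's grouping and 5 to 11 without single arrays, lowest without R replicate 3. Of all 16790 genes, 2517 were called higher and 3461 lower in the main fit, and 863 and 6178 relative to the array median. With slide as a block 3856 were higher and 4806 lower, with no filter 1407 and 2204, and without the crossed arrays 971 and 1711. The signs of small differences turned: Fkbp4 to 0.05 with slide as a block and with the table's grouping, 0.07 within slide 1, 0.10 with the mean of probes, 0.02 without the crossed arrays and between -0.06 and 0.01 without single arrays, Fkbp5 to 0.03 with array weights, Nr3c1 to -0.11 and Hsp90aa1 to -0.05 relative to the array median, Nr3c1 to 0 within slide 1, Srd5a1 to 0.01 within slide 2, and Nr3c2 to -0.11 with the mean of probes and -0.63 with the brightest probe under the table's naming, added after the data had been seen. The causes were not tested.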
